A study of Mus musculus with 12 samples.

Results

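The mitosis and spindle genes are 39 genes whose products start mitosis, build the spindle, tie chromosomes to it and cut the cell apart. They were picked by gene symbol, and all 39 are among the 16570 genes of the deposited table. RNA was sequenced in 12 libraries of bone marrow-derived macrophages from C57BL/6J mice aged 6 to 8 weeks, with 3 libraries in each of 4 groups. All groups received M-CSF, the growth and survival factor of macrophages, at 50 ng/mL for 2 days. The RHC80267 group also received RANKL at 100 ng/mL and 1 µM RHC80267, a compound known to inhibit diacylglycerol lipase. The BMS309403 group received RANKL at the same dose and 1 µM BMS309403, which is known to inhibit the lipid carrier FABP4. The RANKL group received RANKL and no inhibitor, and the M-CSF group received neither. RANKL is the cytokine that turns these macrophages into bone-resorbing osteoclasts. The labels name no vehicle. For the inhibitor groups the treatment label writes RANK where the design text has RANKL, and RANKL is used here. Their general culture method mentions 4 days of RANKL, while the treatment they list for each library is 2 days, and 2 days is used here. Whether the libraries of a group came from separate mice or dishes is not stated, and a p-value here therefore covers only the spread among these libraries, which may be technical.

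Cells enter mitosis when the kinase CDK1, bound to A- and B-type cyclins, is switched on. Spindle motors and microtubule-binding proteins then build the spindle, kinetochores attach chromosomes to it, and the spindle checkpoint delays anaphase until every kinetochore is attached. The anaphase-promoting complex with CDC20 ends the delay, separase cuts the cohesin between sister chromatids, and the central spindle guides the cleavage furrow. Transcripts of most of these proteins are made mainly in G2 and mitosis, so their level in a culture is widely used as a readout of dividing cells. Osteoclast precursors are known to divide early after RANKL and to leave the cell cycle before they fuse.

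Total expected counts ran from 17760844 to 18344989 per library, and the count of a single mitosis gene in a library from 23 to 2612. All 39 genes passed the filter on low counts that left 12168 genes for testing. Levels within a gene are given as CPM, read counts scaled to a common library size with TMM factors. Fold changes are log2 values ± SE from 1 edgeR quasi-likelihood fit to all 12 libraries, and a gene counts as called where its p, adjusted by Benjamini and Hochberg's method across the 12168, is below 0.05. The same 3 RANKL libraries serve in both inhibitor comparisons and in the comparison with M-CSF, and the inhibitor libraries serve again where the inhibitors are set against each other. The sets of fold changes are therefore not independent.

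Levels between genes can be compared on the deposited FPKM, which are scaled by transcript length. With RANKL alone, Cenpa, the histone H3 variant of centromeres, had the highest mean of the 39 at 49.2 ± 2.46 FPKM (SD, n = 3). It was followed by the checkpoint protein Bub3 at 44.9 ± 1.85 FPKM and securin, Pttg1, at 33.1 ± 3.07 FPKM. The lowest was the CDK1-activating phosphatase Cdc25c at 1.15 ± 0.126 FPKM. Cenpa ranked first of the 39 by FPKM in the BMS309403, RANKL and M-CSF groups. In the RHC80267 group its mean was 31.6 ± 1.57 FPKM, below Bub3 at 45.5 ± 1.96 FPKM and Ube2c at 39.5 ± 5.004 FPKM. The 3 genes with the highest levels under RANKL are also 3 that did not rise with RHC80267, described below by role.

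Cells treated with RHC80267 held more RNA of most mitosis genes than cells with RANKL alone. Of the 39 genes, 32 rose and 1, Cenpa, fell, which is 82.1% and 2.56% of them, where 26.9% of all genes tested rose and 23% fell (49.9% were called in either direction). The median log2 fold change of the 39 was 0.40, against 0.02 over all genes tested, and single values ran from −0.69 to 0.64. In 31 genes all 3 RHC80267 libraries lay above all 3 RANKL libraries, a separation shown by 31.1% of all genes tested, and in 1 gene they all lay below, as in 26.8% of all genes. The summed level of the 39 genes was 1169, 1056 and 1160 CPM with RHC80267, against 963, 918 and 873 CPM with RANKL alone. The lowest RHC80267 library stood above the highest RANKL library, and the RHC80267 mean was 23.0% higher. In these bulk libraries a smaller share of cells in mitosis and less RNA per mitotic cell cannot be told apart, nor can their opposites.

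Cells treated with BMS309403 held less RNA of 22 of these genes than cells with RANKL alone. These 22 genes are 56.4% of the 39, where 3.74% of all genes tested fell. In either direction 7.23% of all genes were called. None of the 39 was called higher by edgeR, DESeq2 or limma-voom, against 3.49% of all genes in the edgeR fit, and 2 (Cenpa and Pttg1) were higher at an unadjusted p below 0.05. The other 17 were not called, and 37 of 39 fold changes were negative. The median was −0.36, against −0.01 over all genes tested, with a range of −0.64 to 0.16. Scaled by library totals alone, 274 genes of the whole table rose and 715 fell, so that 27.7% of its calls were rises, against 48.3% with TMM factors. In 29 genes the BMS309403 libraries all lay below the RANKL libraries, as in 12% of all genes tested, and in 1, Cenpa, they all lay above, as in 11.2%. The summed level was 760.0, 749 and 791 CPM with BMS309403, against 963, 918 and 873 CPM with RANKL alone, a mean 16.5% lower. Without RANKL replicate 1, the highest of the 3 RANKL libraries by this sum, 12 genes fell, against 111 of all genes tested. Without BMS309403 replicate 2, the lowest of its group, 14 fell, against 145 of all genes tested. With all 12 libraries these numbers were 22 and 455. The number that fell thus dropped by a larger share over all genes tested than among the 39.

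Set against each other, the inhibitor groups differed in nearly all of the 39 genes. With RHC80267, 35 genes were higher than with BMS309403 (30.1% of all genes tested were) and 2 were lower, Cenpa and Pttg1 (25.5% of all genes were). In either direction 55.5% of all genes were called. The median log2 fold change was 0.74, against 0.03 over all genes, and the values ran from −0.80 to 1.04. Scaled by library totals alone, 67.9% of the calls of the whole table were of genes higher with RHC80267, against 54.2% with TMM factors. The libraries of the groups did not overlap in 38 of the 39 genes: RHC80267 was the higher group in 36, as in 33.2% of all genes tested, and the lower group in 2, as in 28.5%. The summed level averaged 1128 ± 62.9 CPM with RHC80267 and 767 ± 21.7 CPM with BMS309403 (SD, n = 3 each), 47.2% more with RHC80267. Both compounds were used at 1 µM for 2 days. Bub3 and Kif23 were the only ones of the 39 not called.

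RANKL against M-CSF alone gave a mixed picture. With RANKL, 6 genes rose and 13 fell, which is 15.4% and 33.3% of the 39, where 31.4% of all genes tested rose and 29.8% fell (61.2% were called in either direction). With all 12 libraries the share that fell is near that of all genes. The median was −0.13, against 0.00 over all genes tested, and the range of −0.45 to 1.76 was set at its upper end by Espl1 alone, the next being Bub1b at 0.66. The RANKL libraries all lay above the M-CSF libraries in 4 genes, as in 33.4% of all genes tested, and all below in 14, as in 32.2%. The summed level was 963, 918 and 873 CPM with RANKL and 959, 1008 and 936 CPM with M-CSF, values that overlap. Without M-CSF replicate 2, the highest of its group by this sum, 8 genes fell, against 3447 of all genes tested. Without RANKL replicate 3, the lowest of its group, 7 fell, against 3387 of all genes tested. With all 12 libraries these numbers were 13 and 3628.

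**Figure D1:**
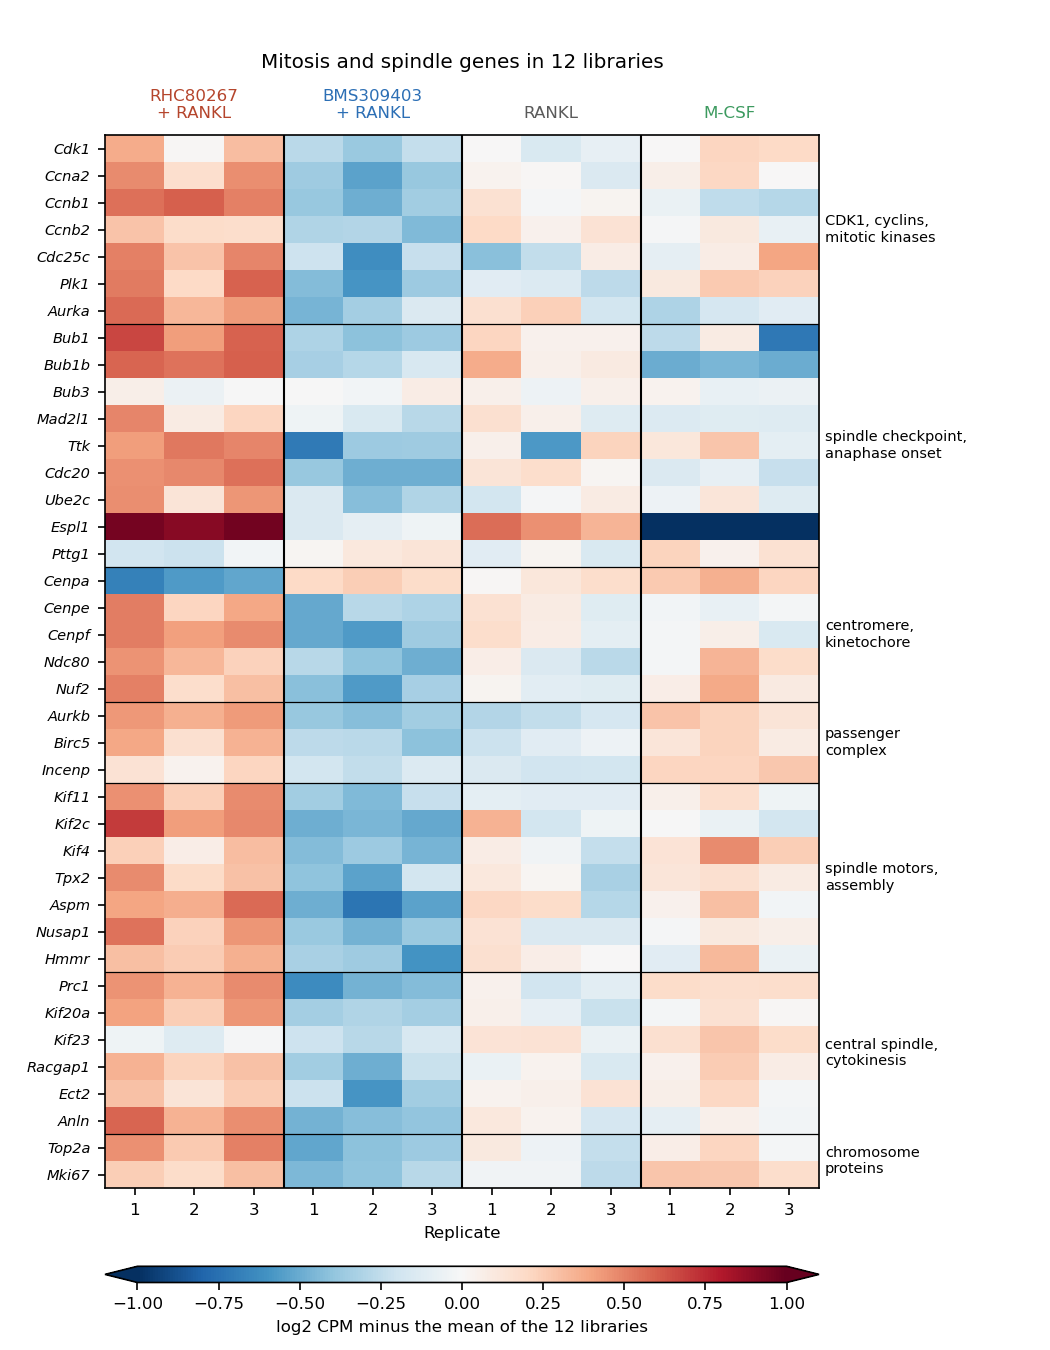
Log2 CPM of each of the 39 genes in each of the 12 libraries, minus the gene's mean over the 12 libraries, with genes in rows by role and libraries in columns by group. The scale ends at −1 and 1, which Espl1 passes. The 3 RHC80267 columns are mostly red (higher) and the 3 BMS309403 columns mostly blue (lower), with Cenpa in the opposite colours and Bub3 near 0 throughout.

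**Figure D2:**
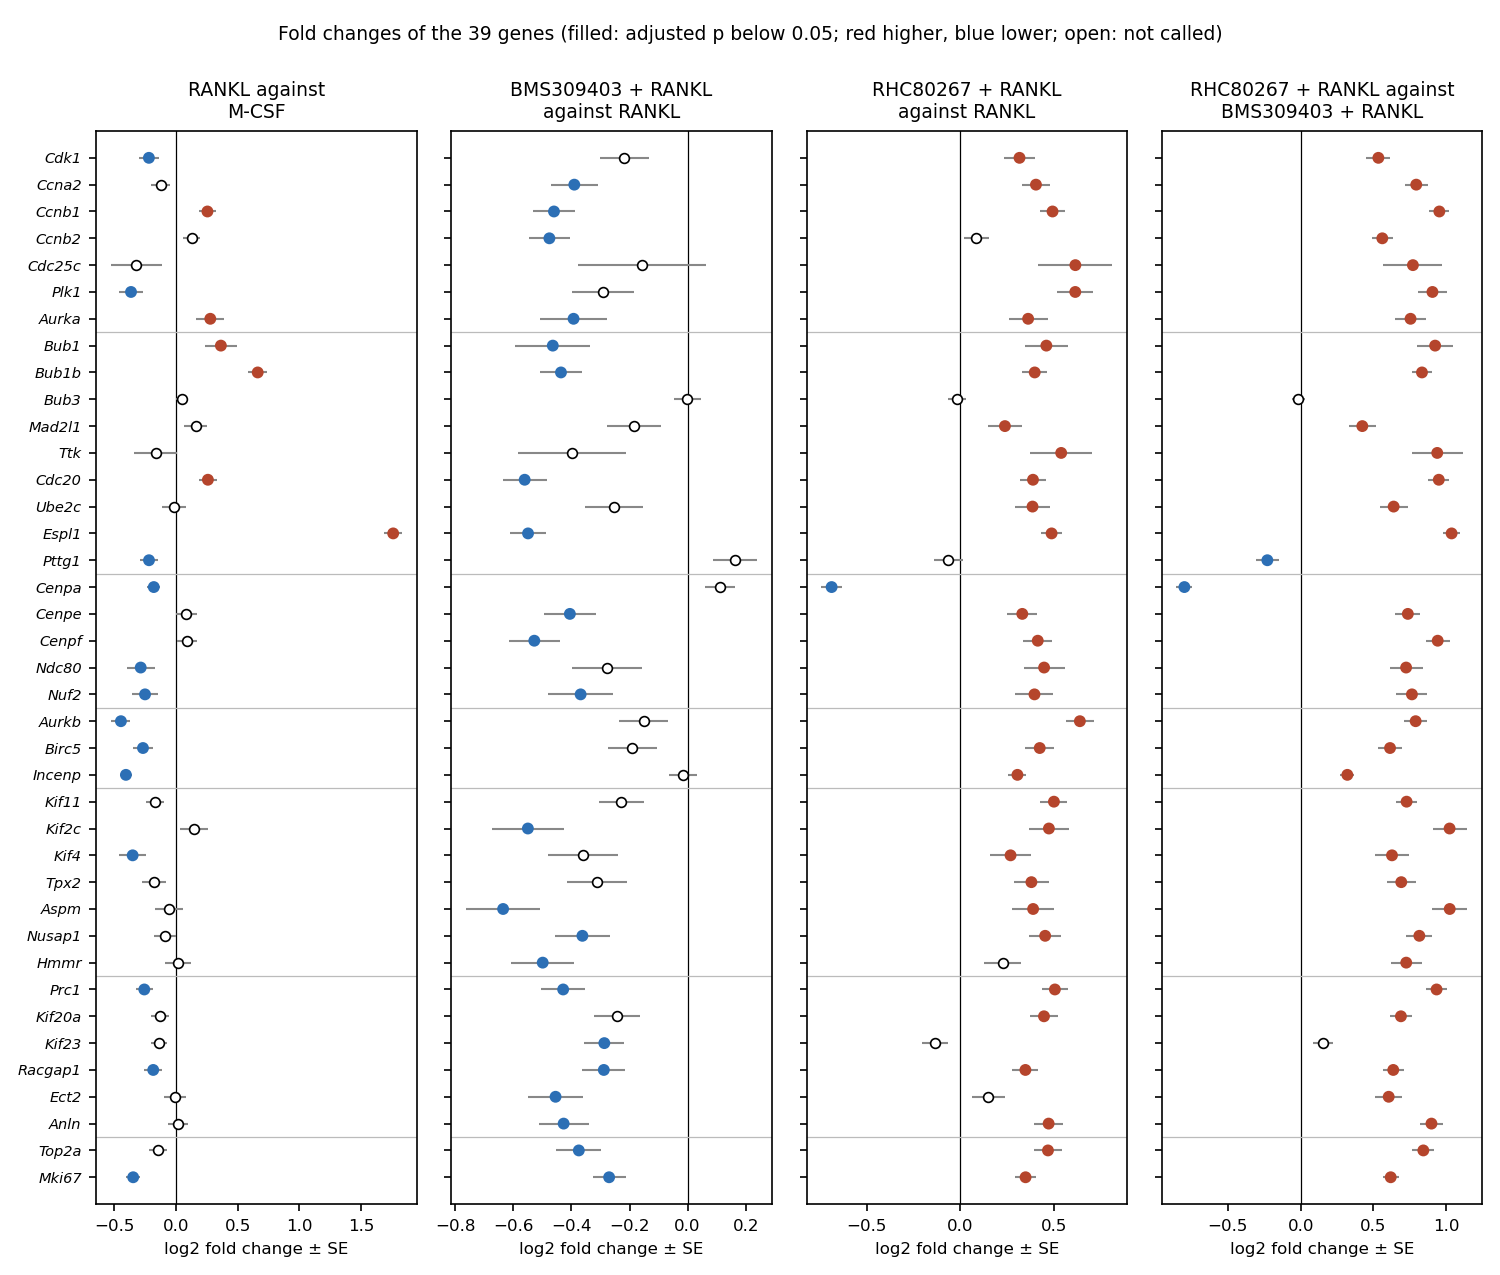
Log2 fold change ± SE of each of the 39 genes in the 4 comparisons, with filled red points for genes called higher, filled blue points for genes called lower and open points for genes not called. The number of filled red and blue points is 6 and 13 for RANKL against M-CSF, 0 and 22 for BMS309403 against RANKL, 32 and 1 for RHC80267 against RANKL, and 35 and 2 for RHC80267 against BMS309403.

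Promoters of mitotic genes are known to share a cell cycle genes homology region (CHR), spelled TTTGAA or TTCGAA, which the DREAM complex and B-MYB with FOXM1 use, and CCAAT boxes bound by NF-Y. RefSeq promoters on GRCm38.p6, from 250 bases before to 50 after the start, were at hand for 33 of the 39 genes and were searched on both strands. TTCGAA is its own reverse complement. CHR spellings cannot overlap one another, and CCAAT can share 1 base with either. TTTGAA was in 25 of the 33 promoters, or 75.8%, against 20.2% of the promoters of 27025 genes. TTCGAA was in 3, or 9.1%, against 1.8%. Within 60 bases before the start or in the 50 after it, either spelling was in 24 of 33, or 72.7%, against 6.8% of all promoters and 4.9% of those of tested genes. CCAAT was in 25 of 33, or 75.8%, against 41.1%. The 24 genes with a CHR spelling in that window and the 9 without had nearly the same median fold change with RHC80267 against RANKL (0.39 and 0.40) and with BMS309403 against RANKL (−0.40 and −0.36). A match of letters is a description of these windows and not a site of binding.

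Of the 7 genes called in the same direction in 3 of the 4 comparisons, which share libraries, 4 hold a CHR spelling in the stretch from 120 bases before the start to base 30 after it. These are shown because they include both kinds of behaviour: Espl1, Cdc20 and Bub1, higher in 3 comparisons, and Cenpa, lower in 3. Capitals mark TTTGAA or TTCGAA, and CCAAT on either strand (ATTGG on the strand shown).
Espl1: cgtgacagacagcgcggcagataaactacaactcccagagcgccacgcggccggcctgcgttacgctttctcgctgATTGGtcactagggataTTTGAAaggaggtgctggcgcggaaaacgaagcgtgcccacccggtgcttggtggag
Cdc20: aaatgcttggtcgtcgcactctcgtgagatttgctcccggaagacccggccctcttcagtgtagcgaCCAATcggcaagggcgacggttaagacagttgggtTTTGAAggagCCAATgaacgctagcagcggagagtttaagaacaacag
Bub1: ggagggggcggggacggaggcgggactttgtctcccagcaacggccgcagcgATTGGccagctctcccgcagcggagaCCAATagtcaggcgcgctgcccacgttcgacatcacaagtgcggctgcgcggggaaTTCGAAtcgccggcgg
Cenpa: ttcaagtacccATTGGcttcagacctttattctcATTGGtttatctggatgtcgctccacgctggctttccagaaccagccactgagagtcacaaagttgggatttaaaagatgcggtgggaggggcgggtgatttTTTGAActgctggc
The stretches are chr15:102296173-102296322 on the plus strand for Espl1, chr4:118437314-118437463 on the minus strand for Cdc20, chr2:127831830-127831979 on the minus strand for Bub1 and chr5:30666766-30666915 on the plus strand for Cenpa. With the start base as 1, the CHR spelling begins at base −27 in Espl1, −18 in Cdc20, 15 in Bub1 and 17 in Cenpa. CCAAT letters begin at −44 in Espl1, at −53 and −8 in Cdc20, at −68 and −42 in Bub1 and at −109 and −86 in Cenpa. Cenpa, the gene that fell with RHC80267, thus holds both kinds of letters found in the genes that rose. Pttg1, which also differed from the rest, and Ccnb1, which did not, hold neither CHR spelling in the window searched, which says only that these letters are not there.

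Among CDK1, its cyclins and the kinases around it, 6 of 7 genes rose with RHC80267, where 26.9% of all genes tested rose. Ccnb1 (gene 268697, chr13:100778739-100786486), the cyclin whose binding to CDK1 starts mitosis, had 29.4, 30.4 and 28.5 CPM with RHC80267, 15.5, 14.3 and 15.8 CPM with BMS309403, 22.3, 19.9 and 20.5 CPM with RANKL and 19.2, 16.9 and 16.5 CPM with M-CSF. The groups did not overlap in any of the 4 comparisons, with RHC80267 libraries the highest and BMS309403 libraries the lowest. The log2 fold change of Ccnb1 was 0.49 ± 0.07 (adjusted p = 2.18e-06) for RHC80267 against RANKL and −0.46 ± 0.07 (adjusted p = 0.000594) for BMS309403 against RANKL. It was 0.95 ± 0.07 (adjusted p = 1.47e-10) for RHC80267 against BMS309403 and 0.25 ± 0.07 (adjusted p = 0.00376) for RANKL against M-CSF. Ccnb2, its close relative, had 23.1, 21.6 and 21.5 CPM with RHC80267, 15.4, 15.5 and 14.0 CPM with BMS309403, 21.8, 19.6 and 20.99 CPM with RANKL and 18.8, 20.3 and 18.0 CPM with M-CSF. Ccnb2 fell with BMS309403 (−0.48 ± 0.07, adjusted p = 0.000398), and with RHC80267 it was the only one of the 7 not called (0.09 ± 0.07, adjusted p = 0.302), with libraries that overlapped those of RANKL. Ccna2, the A-type cyclin of S phase and G2, fell with BMS309403 (−0.39 ± 0.08, adjusted p = 0.00549) and rose with RHC80267 (0.40 ± 0.08, adjusted p = 0.000137). Its BMS309403 call was lost without BMS309403 replicate 2 (log2 fold change −0.33, adjusted p = 0.0547). Cdk1 itself rose with RHC80267 (0.32 ± 0.08, adjusted p = 0.00247) and was not called with BMS309403 (−0.22 ± 0.09, adjusted p = 0.142), although its BMS309403 libraries all lay below its RANKL libraries. Cdk1 fell with RANKL against M-CSF (−0.22 ± 0.08, adjusted p = 0.0241), a call lost without RANKL replicate 2 or 3 or M-CSF replicate 2 or 3 (log2 fold change −0.22 to −0.19, adjusted p of 0.053 to 0.0902).

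Plk1 (gene 18817, chr7:122159435-122169884), a kinase of mitotic entry and spindle poles, had 16.9, 13.5 and 17.6 CPM with RHC80267, 8.68, 7.80 and 9.12 CPM with BMS309403, 10.9, 10.7 and 9.79 CPM with RANKL and 12.6, 14.0 and 13.8 CPM with M-CSF. Every RANKL library lay below every M-CSF library (−0.36 ± 0.10, adjusted p = 0.00318), and every RHC80267 library above every RANKL library (0.61 ± 0.10, adjusted p = 1.81e-05), while the value for BMS309403 was not called (−0.29 ± 0.11, adjusted p = 0.115). Aurka, the Aurora kinase of centrosomes, had 14.6, 12.4 and 13.2 CPM with RHC80267, 7.15, 7.80 and 8.90 CPM with BMS309403, 10.99, 11.7 and 8.67 CPM with RANKL and 7.96, 8.78 and 9.10 CPM with M-CSF. It rose with RANKL against M-CSF (0.28 ± 0.11, adjusted p = 0.0373), the opposite sign to Plk1, although RANKL replicate 3 lay among the M-CSF libraries. That call was lost without RANKL replicate 1 or 2 or M-CSF replicate 1 or 2 (log2 fold change 0.19 to 0.29, adjusted p of 0.0633 to 0.199). Aurka fell with BMS309403 (−0.39 ± 0.11, adjusted p = 0.0389), where the libraries overlapped, and the call was lost without BMS309403 replicate 1 or 2 or RANKL replicate 1 or 2 (log2 fold change −0.37 to −0.30, adjusted p of 0.142 to 0.194). It rose with RHC80267 (0.36 ± 0.10, adjusted p = 0.00624) except without RANKL replicate 3 (log2 fold change 0.25, adjusted p = 0.0564). Cdc25c, the phosphatase that activates CDK1, had 2.80, 2.40 and 2.77 CPM with RHC80267, 1.70, 1.28 and 1.68 CPM with BMS309403 and 1.48, 1.66 and 2.07 CPM with RANKL. With Plk1 it had the highest fold change of this group with RHC80267 (0.61 ± 0.20, adjusted p = 0.0132), a call lost without RANKL replicate 1 (log2 fold change 0.51, adjusted p = 0.0621).

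The checkpoint and anaphase genes held the largest rise of the 39 with RANKL and 2 genes that did not follow the others. Espl1 (gene 105988, chr15:102296254-102324357) encodes separase, the protease that cuts cohesin at anaphase. It had 45.0, 43.4 and 45.0 CPM with RHC80267, 20.9, 21.7 and 22.4 CPM with BMS309403, 34.1, 31.8 and 29.3 CPM with RANKL and 8.97, 9.84 and 9.27 CPM with M-CSF. The 4 groups were fully apart, in descending order RHC80267, RANKL, BMS309403 and M-CSF. Espl1 rose 3.39-fold with RANKL against M-CSF, a log2 fold change of 1.76 ± 0.07 (adjusted p = 3.95e-15). It fell with BMS309403 (−0.55 ± 0.06, adjusted p = 8.75e-05), rose with RHC80267 (0.49 ± 0.06, adjusted p = 2.9e-07) and gave the largest difference of the 39 between the inhibitors (1.04 ± 0.06, adjusted p = 2.9e-12). Its mean with BMS309403, 21.7 ± 0.751 CPM, stood above its M-CSF mean of 9.36 ± 0.444 CPM (SD, n = 3 each). By length-scaled level Espl1 averaged 5.02 ± 0.425 FPKM with RANKL and 1.44 ± 0.0624 FPKM with M-CSF.

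Pttg1 encodes securin, the inhibitor and partner of separase, and its values did not follow those of Espl1. Pttg1 had 13.8, 13.6 and 15.5 CPM with RHC80267, 16.0, 17.0 and 17.2 CPM with BMS309403, 14.6, 16.1 and 14.2 CPM with RANKL and 18.4, 16.3 and 17.6 CPM with M-CSF. RHC80267 and RANKL libraries overlapped (−0.07 ± 0.08, adjusted p = 0.509), as did BMS309403 and RANKL libraries (0.16 ± 0.08, adjusted p = 0.236). It fell with RANKL against M-CSF (−0.22 ± 0.08, adjusted p = 0.0166), a call lost without RANKL replicate 1 or 3 or M-CSF replicate 1 (log2 fold change −0.20 to −0.18, adjusted p of 0.0521 to 0.0736). Pttg1 was also lower with RHC80267 than with BMS309403 (−0.23 ± 0.08, adjusted p = 0.0152), a call lost without RHC80267 replicate 1 or 2 (log2 fold change −0.21 to −0.19, adjusted p of 0.0574 to 0.0675).

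Cdc20 (gene 107995, chr4:118432901-118437343), the activator of the anaphase-promoting complex, had 20.3, 20.6 and 21.7 CPM with RHC80267, 11.4, 10.5 and 10.5 CPM with BMS309403, 16.1, 16.7 and 14.9 CPM with RANKL and 13.4, 14.0 and 12.6 CPM with M-CSF. No groups overlapped, and here the BMS309403 libraries lay below the M-CSF libraries too. The log2 fold change of Cdc20 was −0.56 ± 0.08 (adjusted p = 0.000286) with BMS309403, the largest fall of the 9 checkpoint and anaphase genes. It was 0.39 ± 0.07 (adjusted p = 6.78e-05) with RHC80267 and 0.26 ± 0.07 (adjusted p = 0.00435) for RANKL against M-CSF. Ube2c, the ubiquitin-conjugating enzyme of that complex, rose with RHC80267 (0.39 ± 0.09, adjusted p = 0.00152) and was not called with BMS309403 (−0.25 ± 0.10, adjusted p = 0.144) or with RANKL against M-CSF (−0.02 ± 0.10, adjusted p = 0.894).

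Among the checkpoint kinases and their partners, Bub1b, which encodes BUBR1, had 43.0, 41.8 and 43.3 CPM with RHC80267, 22.8, 23.5 and 25.7 CPM with BMS309403, 37.2, 29.7 and 30.4 CPM with RANKL and 20.3, 20.9 and 20.3 CPM with M-CSF. The 4 groups were apart, with RANKL replicate 1 well above the other RANKL libraries. Bub1b rose with RANKL (0.66 ± 0.07, adjusted p = 9.33e-08), fell with BMS309403 (−0.44 ± 0.07, adjusted p = 0.000877) and rose with RHC80267 (0.40 ± 0.07, adjusted p = 4.37e-05). Bub1, a kinase of the same checkpoint, had 20.1, 16.8 and 19.0 CPM with RHC80267, 10.2, 9.48 and 9.79 CPM with BMS309403, 14.6, 13.0 and 13.0 CPM with RANKL and 10.5, 13.4 and 7.70 CPM with M-CSF. The M-CSF libraries of Bub1 were widely spread. Its rise with RANKL (0.36 ± 0.13, adjusted p = 0.0171) became 0.57 (adjusted p = 0.000296) without M-CSF replicate 2, and the call was lost without RANKL replicate 1 or M-CSF replicate 3 (log2 fold change 0.18 to 0.30, adjusted p of 0.0725 to 0.152), with the lower value without M-CSF replicate 3. Bub1 fell with BMS309403 (−0.46 ± 0.13, adjusted p = 0.0297), a call lost without BMS309403 replicate 1, 2 or 3 or RANKL replicate 1 or 2 (log2 fold change −0.49 to −0.40, adjusted p of 0.0578 to 0.168), and rose with RHC80267 (0.46 ± 0.11, adjusted p = 0.00218).

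Ttk, the checkpoint kinase known as MPS1, had 5.06, 5.45 and 5.32 CPM with RHC80267, 2.33, 2.95 and 2.97 CPM with BMS309403 and 3.94, 2.54 and 4.42 CPM with RANKL. It rose with RHC80267 (0.54 ± 0.16, adjusted p = 0.00956), the largest rise of the checkpoint and anaphase genes, and the call was lost without RANKL replicate 2 (log2 fold change 0.32, adjusted p = 0.0981). With BMS309403 Ttk was not called (−0.40 ± 0.19, adjusted p = 0.235), RANKL replicate 2 lay among the BMS309403 libraries, and the gene was called lower without RANKL replicate 2 (log2 fold change −0.59, adjusted p = 0.0497). Mad2l1, which encodes the checkpoint inhibitor MAD2, rose with RHC80267 (0.24 ± 0.09, adjusted p = 0.0308) with libraries that overlapped. This call was lost without RHC80267 replicate 1 or RANKL replicate 2 or 3 (log2 fold change 0.11 to 0.23, adjusted p of 0.0733 to 0.287), with the lower value without RHC80267 replicate 1. Mad2l1 was not called with RANKL against M-CSF (0.16 ± 0.09, adjusted p = 0.141) but was called higher without RANKL replicate 3 (log2 fold change 0.24, adjusted p = 0.0463). Bub3, the partner that brings BUB1 and BUBR1 to kinetochores, had 80.3, 74.3 and 77.0 CPM with RHC80267, 77.2, 76.0 and 81.2 CPM with BMS309403, 80.01, 74.7 and 79.97 CPM with RANKL and 79.4, 73.5 and 74.1 CPM with M-CSF. All 4 groups of Bub3 overlapped, and its fold changes lay between −0.02 and 0.05, none called.

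**Figure D3:**
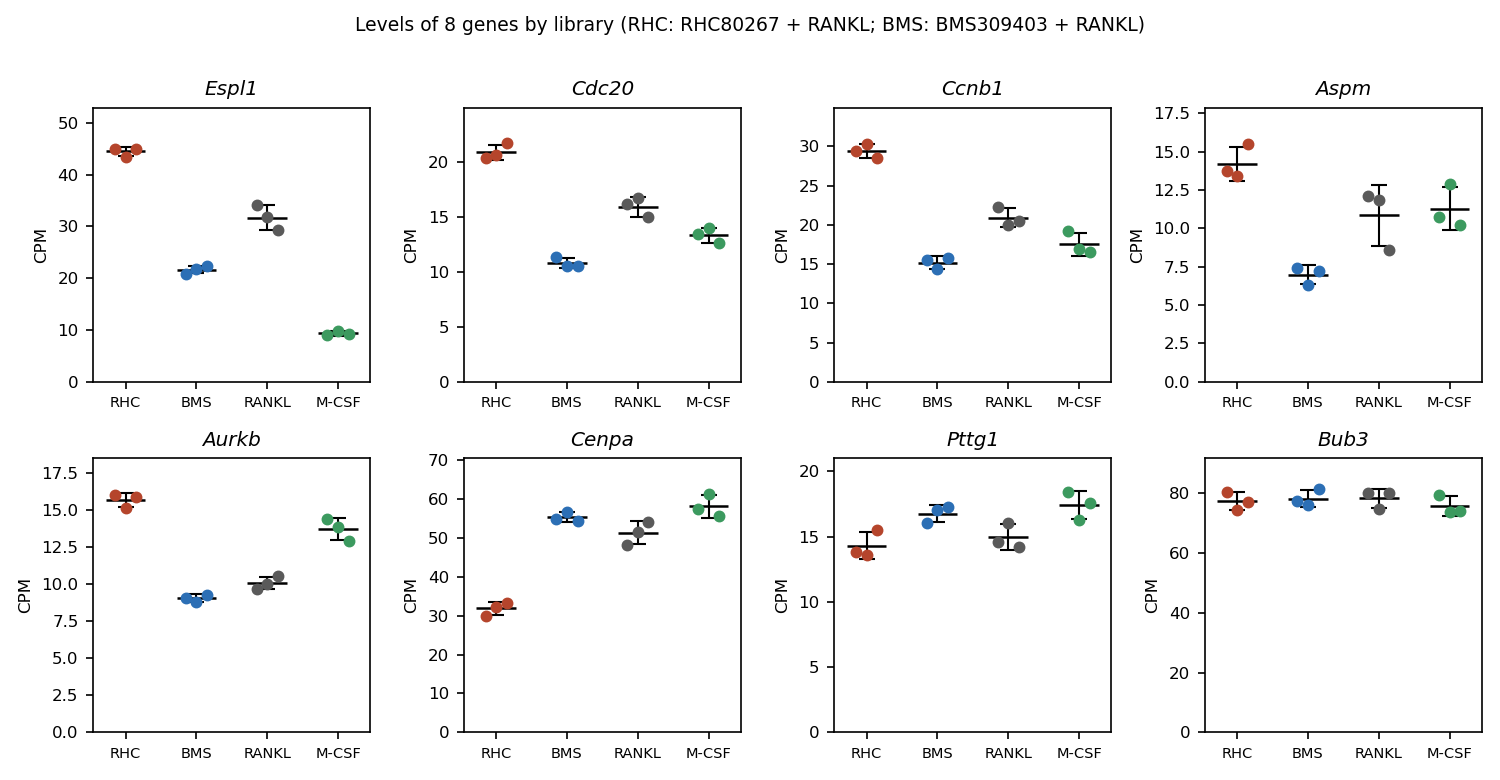
CPM of 8 of the 39 genes in each library, with points for libraries, horizontal bars for the group mean and error bars for the SD (n = 3). Espl1, Cdc20, Ccnb1 and Aspm are highest with RHC80267 and, of the groups given RANKL, lowest with BMS309403. Cenpa is lowest with RHC80267, at 29.9 to 33.3 CPM, and Bub3 lies between 73.5 and 81.2 CPM in all groups.

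At the centromere and kinetochore, 4 of 5 genes rose with RHC80267 and the remaining one, Cenpa (gene 12615, chr5:30666877-30677805), fell. Of all genes tested 26.9% rose and 23% fell. Cenpa had 29.9, 32.3 and 33.3 CPM with RHC80267, 54.9, 56.7 and 54.4 CPM with BMS309403, 48.2, 51.6 and 54.0 CPM with RANKL and 57.4, 61.2 and 55.6 CPM with M-CSF. The RHC80267 libraries lay far below every other library. The log2 fold change of Cenpa was −0.69 ± 0.06 (adjusted p = 1.43e-09) for RHC80267 against RANKL and −0.80 ± 0.06 (adjusted p = 7.28e-11) for RHC80267 against BMS309403, in both the most negative of the 39. BMS309403 libraries all lay above RANKL libraries by an amount that was not called (0.11 ± 0.05, adjusted p = 0.242), and Cenpa fell with RANKL against M-CSF (−0.18 ± 0.05, adjusted p = 0.00491). These 3 calls held when any single library was left out.

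Hjurp, the chaperone that loads CENP-A, is no member of the 39 and was looked at after the values of Cenpa had been seen. It rose with RHC80267 (0.19, adjusted p = 0.000831).

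Cenpf, a large kinetochore protein of G2 and mitosis, had 21.3, 19.8 and 20.7 CPM with RHC80267, 10.4, 10.1 and 11.7 CPM with BMS309403, 16.8, 15.7 and 13.9 CPM with RANKL and 14.7, 15.5 and 13.4 CPM with M-CSF. Of the 4 comparisons, its groups overlapped only in that of RANKL with M-CSF. Cenpf fell with BMS309403 (−0.53 ± 0.09, adjusted p = 0.000809) and rose with RHC80267 (0.41 ± 0.08, adjusted p = 0.000149). Cenpe, the kinesin of kinetochores, fell with BMS309403 (−0.41 ± 0.09, adjusted p = 0.00716) except without RANKL replicate 1 (log2 fold change −0.35, adjusted p = 0.066), and rose with RHC80267 (0.33 ± 0.08, adjusted p = 0.0018). Ndc80, a subunit of the complex that grips microtubules, had 11.3, 10.4 and 9.66 CPM with RHC80267, 6.81, 6.24 and 5.88 CPM with BMS309403, 8.64, 7.45 and 6.83 CPM with RANKL and 8.13, 10.5 and 9.38 CPM with M-CSF. It had the largest rise of the 5 with RHC80267 (0.45 ± 0.11, adjusted p = 0.00184), while the BMS309403 value was not called (−0.28 ± 0.12, adjusted p = 0.196). Ndc80 fell with RANKL against M-CSF (−0.29 ± 0.11, adjusted p = 0.0323), with groups that overlapped, and that call was lost without RANKL replicate 2 or 3 or M-CSF replicate 2 or 3 (log2 fold change −0.28 to −0.20, adjusted p of 0.0671 to 0.174). Its partner Nuf2 rose with RHC80267 (0.40 ± 0.10, adjusted p = 0.00267). Nuf2 fell with RANKL against M-CSF (−0.25 ± 0.10, adjusted p = 0.0413), a call lost without RANKL replicate 2 or 3 or M-CSF replicate 2 (log2 fold change −0.23 to −0.15, adjusted p of 0.0996 to 0.25), the smallest value being without M-CSF replicate 2. It also fell with BMS309403 (−0.37 ± 0.11, adjusted p = 0.0487), a call lost without any 1 of the 6 libraries compared (log2 fold change −0.41 to −0.30, adjusted p of 0.0558 to 0.238).

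In the chromosomal passenger complex, all 3 genes fell with RANKL against M-CSF, all 3 rose with RHC80267 and none was called with BMS309403. Of all genes tested 29.8% fell with RANKL, 26.9% rose with RHC80267 and only 7.23% were called in either direction with BMS309403. Aurkb (gene 20877, chr11:69045624-69051664), its kinase, had 16.0, 15.2 and 15.9 CPM with RHC80267, 9.08, 8.81 and 9.29 CPM with BMS309403, 9.67, 9.99 and 10.5 CPM with RANKL and 14.4, 13.8 and 12.9 CPM with M-CSF. Aurkb fell with RANKL against M-CSF (−0.45 ± 0.08, adjusted p = 3.56e-05), and its RHC80267 libraries lay above all others (0.64 ± 0.08, adjusted p = 4.4e-07, against RANKL), the largest rise of the 39 genes with RHC80267. BMS309403 libraries lay below every RANKL library by an amount not called (−0.15 ± 0.08, adjusted p = 0.354). Incenp, the scaffold of the complex, had 71.1, 65.9 and 74.9 CPM with RHC80267, 56.6, 54.3 and 58.8 CPM with BMS309403, 58.3, 56.6 and 56.7 CPM with RANKL and 74.8, 74.9 and 77.7 CPM with M-CSF. Incenp fell with RANKL against M-CSF (−0.41 ± 0.05, adjusted p = 1.81e-07) and rose with RHC80267 (0.30 ± 0.05, adjusted p = 1.9e-05), while BMS309403 and RANKL libraries overlapped (−0.02 ± 0.05, adjusted p = 0.909). Birc5, which encodes survivin, fell with RANKL against M-CSF (−0.27 ± 0.08, adjusted p = 0.00627), rose with RHC80267 (0.42 ± 0.08, adjusted p = 0.000117) and was not called with BMS309403 (−0.19 ± 0.08, adjusted p = 0.207). DESeq2 and limma-voom, like edgeR, called none of the 3 with BMS309403, and 1 had an unadjusted p below 0.05 in the edgeR fit.

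Among spindle motors and assembly factors, 6 of 7 rose with RHC80267 and 4 fell with BMS309403. Of all genes tested 26.9% rose with RHC80267 and 3.74% fell with BMS309403. Aspm (gene 12316, chr1:139440269-139494088), a spindle-pole protein, had 13.7, 13.4 and 15.5 CPM with RHC80267, 7.44, 6.30 and 7.22 CPM with BMS309403, 12.1, 11.9 and 8.56 CPM with RANKL and 10.8, 12.9 and 10.2 CPM with M-CSF. The BMS309403 libraries lay below every other library, and RANKL replicate 3 lay well below the other RANKL libraries. Aspm had the largest fall of the 39 with BMS309403 (−0.64 ± 0.13, adjusted p = 0.00376) and rose with RHC80267 (0.39 ± 0.11, adjusted p = 0.00651), a call lost without RANKL replicate 3 (log2 fold change 0.25, adjusted p = 0.06). Kif2c, the microtubule-depolymerising kinesin MCAK, had 16.0, 13.2 and 13.8 CPM with RHC80267, 7.04, 7.19 and 6.94 CPM with BMS309403, 12.6, 8.72 and 9.63 CPM with RANKL and 9.86, 9.45 and 8.71 CPM with M-CSF. RANKL replicate 1 was the highest of its group. Kif2c fell with BMS309403 (−0.55 ± 0.12, adjusted p = 0.00856), a call lost without RANKL replicate 1 (log2 fold change −0.38, adjusted p = 0.0999), and rose with RHC80267 (0.47 ± 0.11, adjusted p = 0.00103). Kif11, the kinesin that pushes spindle poles apart, had 28.7, 24.7 and 29.0 CPM with RHC80267, 16.5, 15.4 and 17.9 CPM with BMS309403, 19.6, 19.4 and 19.3 CPM with RANKL and 21.7, 23.5 and 20.3 CPM with M-CSF. It had the largest rise of the 7 with RHC80267 (0.50 ± 0.07, adjusted p = 6.9e-06) and was not called with BMS309403 (−0.23 ± 0.08, adjusted p = 0.0884). For RANKL against M-CSF Kif11 was not called (−0.17 ± 0.08, adjusted p = 0.0568), and was called lower without RHC80267 replicate 2 or BMS309403 replicate 2 or 3 or M-CSF replicate 3 (log2 fold change −0.22 to −0.17, adjusted p of 0.0273 to 0.0497).

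Kif4, a chromosome-bound kinesin, was the only one of these 7 called with RANKL against M-CSF, where it fell (−0.35 ± 0.11, adjusted p = 0.00858) except without RANKL replicate 3 or M-CSF replicate 2 (log2 fold change −0.27 to −0.26, adjusted p of 0.06 to 0.0718). It had 8.94, 7.96 and 9.39 CPM with RHC80267, 5.62, 5.91 and 5.48 CPM with BMS309403, 7.98, 7.40 and 6.44 CPM with RANKL and 8.35, 10.5 and 8.99 CPM with M-CSF. RHC80267 and RANKL libraries overlapped, and the rise with RHC80267 (0.27 ± 0.11, adjusted p = 0.0481) was lost without RHC80267 replicate 1 or 3 or RANKL replicate 2 or 3 (log2 fold change 0.19 to 0.27, adjusted p of 0.0999 to 0.218). With BMS309403 Kif4 was not called (−0.36 ± 0.12, adjusted p = 0.0753), and was called lower without RANKL replicate 3 (log2 fold change −0.44, adjusted p = 0.0385). Tpx2, which activates Aurora A at spindle microtubules, rose with RHC80267 (0.38 ± 0.09, adjusted p = 0.0021). It was not called with BMS309403 (−0.31 ± 0.10, adjusted p = 0.0706) and was called lower without BMS309403 replicate 3 or RANKL replicate 3 (log2 fold change −0.43 to −0.40, adjusted p of 0.00705 to 0.036). With RANKL against M-CSF Tpx2 was not called (−0.18 ± 0.10, adjusted p = 0.124) and was called lower without RANKL replicate 1 (log2 fold change −0.26, adjusted p = 0.036). Nusap1, a microtubule-bundling protein, rose with RHC80267 (0.45 ± 0.09, adjusted p = 0.000158) and fell with BMS309403 (−0.36 ± 0.09, adjusted p = 0.0221), the second of which was lost without BMS309403 replicate 2 or 3 or RANKL replicate 1 (log2 fold change −0.37 to −0.26, adjusted p of 0.0512 to 0.198). Hmmr, a spindle-associated protein, fell with BMS309403 (−0.50 ± 0.11, adjusted p = 0.00699) except without RANKL replicate 1 (log2 fold change −0.46, adjusted p = 0.0513). It had 14.7, 14.3 and 15.3 CPM with RHC80267, 9.54, 9.36 and 7.89 CPM with BMS309403 and 13.3, 12.5 and 11.98 CPM with RANKL. The RHC80267 libraries of Hmmr all lay above its RANKL libraries, yet the gene was not called (0.23 ± 0.10, adjusted p = 0.0619), and it was called higher without M-CSF replicate 2 (log2 fold change 0.21, adjusted p = 0.0341).

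In the central spindle and cytokinesis group, 5 of 6 genes fell with BMS309403 and 4 rose with RHC80267. Of all genes tested 3.74% fell with BMS309403 and 26.9% rose with RHC80267. Prc1 (gene 233406, chr7:80294445-80316259), which bundles the microtubules of the central spindle, had 27.1, 25.3 and 27.6 CPM with RHC80267, 12.8, 14.3 and 14.7 CPM with BMS309403, 20.4, 17.4 and 18.5 CPM with RANKL and 22.5, 22.4 and 22.5 CPM with M-CSF. Its 4 groups did not overlap. Prc1 fell with RANKL against M-CSF (−0.26 ± 0.07, adjusted p = 0.00298) and with BMS309403 (−0.43 ± 0.08, adjusted p = 0.00128), and rose with RHC80267 (0.51 ± 0.07, adjusted p = 2.35e-06). Anln, the anillin of the cleavage furrow, fell with BMS309403 (−0.43 ± 0.09, adjusted p = 0.00393) and rose with RHC80267 (0.47 ± 0.08, adjusted p = 3.15e-05). Kif20a, the kinesin MKLP2, rose with RHC80267 (0.45 ± 0.07, adjusted p = 2.91e-05) and was not called with BMS309403 (−0.24 ± 0.08, adjusted p = 0.0679), though called lower without RANKL replicate 3 (log2 fold change −0.31, adjusted p = 0.0214). For RANKL against M-CSF Kif20a was not called (−0.13 ± 0.08, adjusted p = 0.147), though called lower without RANKL replicate 1 (log2 fold change −0.20, adjusted p = 0.0419).

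Racgap1 and Kif23 encode the GTPase regulator and the kinesin, MKLP1, that form centralspindlin. Racgap1 rose with RHC80267 (0.35 ± 0.07, adjusted p = 0.000276). It fell with BMS309403 (−0.29 ± 0.07, adjusted p = 0.0205), a call lost without BMS309403 replicate 1 or 2 or RANKL replicate 1 or 2 (log2 fold change −0.29 to −0.22, adjusted p of 0.0556 to 0.151), and with RANKL against M-CSF (−0.18 ± 0.07, adjusted p = 0.0286), a call lost without RANKL replicate 1 or 3 or M-CSF replicate 2 (log2 fold change −0.18 to −0.12, adjusted p of 0.0641 to 0.162). Kif23 had 21.3, 20.001 and 21.7 CPM with RHC80267, 19.0, 18.1 and 19.6 CPM with BMS309403, 24.0, 24.2 and 20.9 CPM with RANKL and 24.5, 26.6 and 24.9 CPM with M-CSF. With RHC80267 its value was negative and not called (−0.14 ± 0.07, adjusted p = 0.0998), and it was called lower without RANKL replicate 3 (log2 fold change −0.20, adjusted p = 0.0214). Kif23 fell with BMS309403 (−0.29 ± 0.07, adjusted p = 0.0135), a call lost without BMS309403 replicate 2 or RANKL replicate 1 or 2 (log2 fold change −0.26 to −0.24, adjusted p of 0.0714 to 0.0947). It was not called between the inhibitors (0.15 ± 0.07, adjusted p = 0.0696) or with RANKL against M-CSF (−0.14 ± 0.07, adjusted p = 0.0799), the last of these becoming a call of lower without RANKL replicate 2 (log2 fold change −0.17, adjusted p = 0.0493). Ect2, the exchange factor that starts the cleavage furrow, had 15.1, 13.5 and 14.7 CPM with RHC80267, 10.6, 8.19 and 9.68 CPM with BMS309403, 12.6, 12.8 and 13.7 CPM with RANKL and 12.8, 14.2 and 12.2 CPM with M-CSF. Ect2 had the largest fall of the 6 with BMS309403 (−0.45 ± 0.09, adjusted p = 0.00512), lost without BMS309403 replicate 2 (log2 fold change −0.35, adjusted p = 0.0545), and was not called with RHC80267 (0.15 ± 0.09, adjusted p = 0.162), where the libraries overlapped.

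Both chromosome proteins fell with BMS309403, as did 3.74% of all genes tested, and rose with RHC80267, as did 26.9%. Mki67 (gene 17345, chr7:135689784-135716450), the coat protein of mitotic chromosomes known as the Ki-67 antigen, had 137, 131 and 142 CPM with RHC80267, 84.5, 87.2 and 94.9 CPM with BMS309403, 113, 113 and 96.4 CPM with RANKL and 139.8, 139 and 130.4 CPM with M-CSF. All BMS309403 and RANKL libraries lay below all RHC80267 and M-CSF libraries. Mki67 fell with RANKL against M-CSF (−0.35 ± 0.05, adjusted p = 1.05e-05) and with BMS309403 against RANKL (−0.27 ± 0.06, adjusted p = 0.00527), and rose with RHC80267 (0.35 ± 0.05, adjusted p = 1.8e-05). Top2a (gene 21973, chr11:98992947-99024199), the topoisomerase that untangles sister chromatids, had 96.3, 83.9 and 99.4 CPM with RHC80267, 48.9, 52.7 and 54.3 CPM with BMS309403, 75.1, 67.5 and 59.4 CPM with RANKL and 73.2, 81.4 and 69.3 CPM with M-CSF. It rose with RHC80267 (0.47 ± 0.07, adjusted p = 1.69e-05) and fell with BMS309403 (−0.37 ± 0.08, adjusted p = 0.00491), the second of which was lost without RANKL replicate 1 (log2 fold change −0.29, adjusted p = 0.0576). Top2a was not called with RANKL against M-CSF (−0.15 ± 0.07, adjusted p = 0.093), with overlapping libraries, and was called lower without RANKL replicate 1 or M-CSF replicate 3 (log2 fold change −0.23 to −0.20, adjusted p of 0.0121 to 0.0404).

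Other cell cycle genes, in 7 lists drawn up beside the 39, give the setting. With RHC80267 against RANKL 26.9% of all genes tested rose and 23% fell. Of 47 other spindle, centrosome and cytokinesis genes 30 rose, or 63.8% (median 0.34). Of 32 other kinetochore genes 15 rose, or 46.9% (median 0.29). In each of these lists edgeR, DESeq2 and limma-voom called 0 genes lower, and 1 was lower at an unadjusted p below 0.05 in the edgeR fit. With DESeq2 the genes that rose were 22 and 8. The lowest adjusted p belonged to Kif22 (0.69, adjusted p = 7.82e-07), Cdca8 (0.57, adjusted p = 3.72e-05) and Bora (0.66, adjusted p = 5.49e-05) in the first list, and to Zw10 (0.31, adjusted p = 0.000308), Spc25 (0.54, adjusted p = 0.000457) and Sgo2a (0.45, adjusted p = 0.000499) in the second. DNA replication genes rose in 18 of 28, or 64.3%. They were led by the chromatin assembly subunit Chaf1a (0.66, adjusted p = 7.07e-08) and the helicase subunits Mcm7 (0.49, adjusted p = 1.51e-07) and Mcm6 (0.41, adjusted p = 2.8e-06). In this list 1 gene, Cdt1, named here after its value was seen, fell (−0.32, adjusted p = 0.000133). The clamp gene Pcna was not called (−0.10, adjusted p = 0.0817). Condensin and cohesin genes rose in 11 of 19, or 57.9%, and fell in 1, or 5.26%. The condensin subunit Ncaph (0.65, adjusted p = 3.1e-07) was among those that rose.

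The regulators moved less evenly with RHC80267. In the list of transcriptional control, 7 of 20 genes rose and 3 fell, with a median of 0.07. These are 35% and 15%, where 26.9% of all genes tested rose and 23% fell. Foxm1, the transcription factor of G2 and mitosis genes, rose (0.44, adjusted p = 0.000222), as did Mybl2, which encodes B-MYB (0.58, adjusted p = 0.0032), and E2f1, an activator of S-phase genes (0.33, adjusted p = 0.000429). E2f8, a repressor of the same family, was not called (0.15, adjusted p = 0.162), and E2f3 fell (−0.37, adjusted p = 1.26e-05). Among G1 cyclins, CDKs and CDK inhibitors 11 of 20 rose and 6 fell, or 55% and 30%. Ccnd1, a D-type cyclin, fell (−1.53, adjusted p = 1.58e-12). The other D-type cyclins, named after their values were seen, fell too: Ccnd2 (−1.91, adjusted p = 1.34e-08) and Ccnd3 (−0.32, adjusted p = 2.9e-05). The CDK inhibitors differed in sign, since Cdkn1b, which encodes p27, rose (0.56, adjusted p = 4.47e-09) and Cdkn1a, which encodes p21, fell (−0.26, adjusted p = 5.91e-05). The phosphatase gene Cdc25b rose (0.70, adjusted p = 8.1e-09), and Myc was not called (−0.22, adjusted p = 0.0557). Of 17 genes of the anaphase-promoting complex and its regulators 2 rose and 3 fell. These are 11.8% and 17.6%, both below the shares of all genes tested. Fzr1, the activator used late in mitosis and in G1, was among those that rose (0.47, adjusted p = 9.51e-07).

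BMS309403 gave fewer calls in these lists, all of them lower in the edgeR fit. Of all genes tested 3.74% fell and 3.49% rose. The falls made up 21.3% of other spindle, centrosome and cytokinesis genes (10 of 47, median −0.24) and 12.5% of other kinetochore genes (4 of 32, median −0.19). They made up 10.7% of DNA replication genes (3 of 28, median −0.14) and 10.5% of condensin and cohesin genes (2 of 19, median −0.05). Of transcriptional control (median −0.02) and of G1 genes (median −0.09) 1 of 20 fell in each, or 5%, near the share of all genes. Over the 7 lists 3 genes were higher at an unadjusted p below 0.05, DESeq2 called 1 gene higher and limma-voom 0. DESeq2 called 11 genes lower over the 7 lists, against 21 in the edgeR fit, with 5 against 10 for the other spindle list, 1 against 3 for DNA replication and 0 against 1 for transcriptional control. For the anaphase-promoting complex (median −0.03) edgeR, DESeq2 and limma-voom called 0 of 17 in either direction, and 0 had an unadjusted p below 0.05. Ccnf, the cyclin that marks ribonucleotide reductase and other proteins for destruction (−0.51, adjusted p = 0.000809), Ckap2 (−0.58, adjusted p = 0.00856) and Kif15 (−0.38, adjusted p = 0.00956) led the spindle list, and Hjurp (−0.20, adjusted p = 0.00979), Knl1 (−0.44, adjusted p = 0.0168) and Sgo2a (−0.42, adjusted p = 0.0182) the kinetochore list. Foxm1 fell (−0.34, adjusted p = 0.0323), as did Myc (−0.42, adjusted p = 0.0111) and Chaf1a (−0.31, adjusted p = 0.017). Mybl2 (−0.20, adjusted p = 0.588), E2f1 (0.05, adjusted p = 0.763), E2f8 (−0.02, adjusted p = 0.933), Cdkn1a (0.13, adjusted p = 0.0707), Cdkn1b (0.09, adjusted p = 0.344), Ccnd1 (−0.21, adjusted p = 0.0814) and Pcna (0.07, adjusted p = 0.397) were not called.

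With RANKL against M-CSF 29.8% of all genes tested fell and 31.4% rose. The falls made up 55% of the genes of transcriptional control, 41.2% of the anaphase-promoting complex list, 36.8% of condensin and cohesin, 35.7% of DNA replication, 31.9% of other spindle genes, 30% of G1 genes and 15.6% of other kinetochore genes. The medians ran from −0.15 for transcriptional control to 0.03 for the anaphase-promoting complex list. Of the 20 genes of transcriptional control, 11 fell, led by Rbl2 (−0.34, adjusted p = 4.42e-07), Rb1 (−0.34, adjusted p = 9.97e-06) and Tfdp2 (−0.37, adjusted p = 0.000109). None was called higher by edgeR, DESeq2 or limma-voom, and 0 were higher at an unadjusted p below 0.05. E2f1 (−0.28, adjusted p = 0.00131) and E2f8 (−0.35, adjusted p = 0.00153) were among those that fell, and Foxm1 (−0.10, adjusted p = 0.359) and Mybl2 (0.02, adjusted p = 0.932) were not called. DESeq2 called fewer genes lower, 6 of the other spindle genes against 15 in the edgeR fit, 2 of the other kinetochore genes against 5, and 41 against 61 over the 7 lists. In the edgeR fit other spindle genes fell in 15 of 47 and rose in 3, with Ccnf (0.74, adjusted p = 1.89e-07) the one of lowest adjusted p. Of 28 DNA replication genes 10 fell, Pcna among them (−0.58, adjusted p = 1.56e-10), and 4 rose, including Chaf1b (0.90, adjusted p = 1.56e-08) and Cdt1 (0.55, adjusted p = 8.3e-08). Of 20 G1 genes 4 rose, including Myc (1.61, adjusted p = 3.65e-11), and 6 fell, including Cdkn1a (−0.78, adjusted p = 6.12e-13), Cdkn1b (−0.38, adjusted p = 8.1e-07) and Ccnd1 (−0.37, adjusted p = 7.5e-05). The other kinetochore genes gave 1 rise and 5 falls of 32, condensin and cohesin 1 and 7 of 19, and the anaphase-promoting complex 3 and 7 of 17.

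Between the inhibitors, 30.1% of all genes tested were higher with RHC80267 and 25.5% lower. The higher genes were 40 of 47 other spindle genes (85.1%), 24 of 32 other kinetochore genes (75%) and 22 of 28 replication genes (78.6%). In each of these lists 1 gene was lower. Foxm1 (0.78, adjusted p = 2.18e-07) and Mybl2 (0.77, adjusted p = 0.000242) were higher with RHC80267, and Ccnd1 (−1.32, adjusted p = 1.33e-11) was lower.

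**Figure D4:**
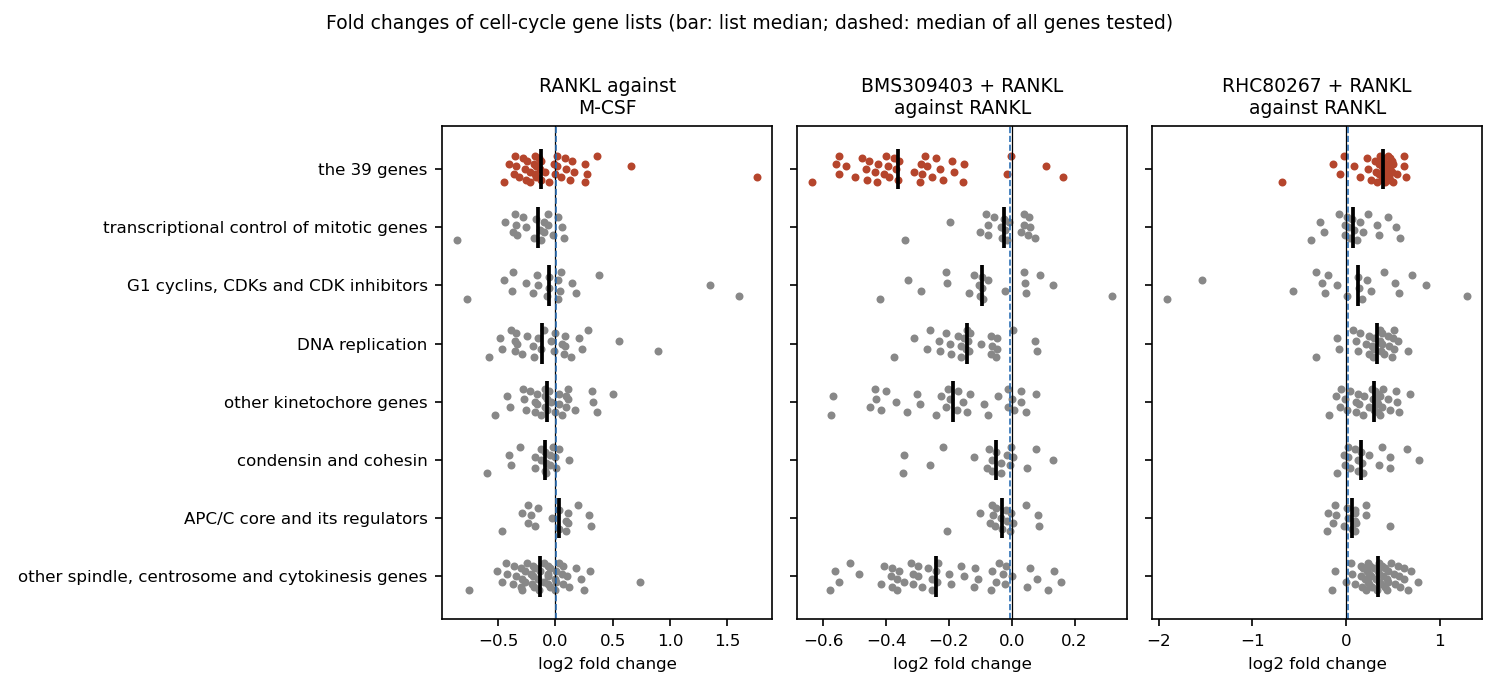
Log2 fold change of each gene tested of the 39 genes (red) and of 7 lists of other cell cycle genes (grey) in 3 comparisons that share the RANKL libraries, with black bars for list medians and dashed lines for the median of all genes tested. With RHC80267 the median is 0.40 for the 39 genes and 0.07 to 0.34 for the other lists, and with BMS309403 it is −0.36 for the 39 genes and −0.24 to −0.02 for the other lists.

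Markers of the cells moved with the groups too. The summed level of 10 osteoclast markers was 16523 to 18660.5 CPM with RHC80267, 6899 to 7779 CPM with BMS309403, 8435 to 10469.8 CPM with RANKL and 175 to 200.1 CPM with M-CSF, so the groups with RANKL stood in the same order as in the summed level of the mitosis genes. The summed level of 10 macrophage markers was 8203 to 8279 CPM with RHC80267, 9464 to 9711 CPM with BMS309403, 8550.3 to 8779 CPM with RANKL and 12718 to 13428 CPM with M-CSF. The summed level of markers of granulocyte-monocyte progenitors and early neutrophils, cells that divide in marrow, was lowest with RHC80267 and highest with M-CSF. These markers summed to 49.0 to 63.7 CPM with RHC80267 and 79.6 to 87.7 CPM with BMS309403. With RANKL they summed to 92.3 to 97.5 CPM, and with M-CSF to 114 to 156 CPM. Single markers did not all follow this order. Cebpe and Kit, named after their values were seen, had their highest group mean with RANKL. Neutrophil markers summed to 773 to 1126 CPM with RHC80267, 1565 to 1692 CPM with BMS309403, 1527 to 1734 CPM with RANKL and 1153 to 1647 CPM with M-CSF. Stromal markers summed to 15.7 to 67.5 CPM with RHC80267, against 6.02 to 9.02 CPM with BMS309403, 5.41 to 14.8 CPM with RANKL and 6.95 to 13.4 CPM with M-CSF. All 3 RHC80267 libraries lay above every other library, and replicate 1 was the highest at 67.5 CPM. The lowest RHC80267 library, at 15.7 CPM, lay only just above the highest RANKL library, at 14.8 CPM. Without replicate 1, which leaves the other 2 raised libraries in, 30 of the 39 genes rose with RHC80267 and 1 fell. Summed erythroid markers reached at most 3.98 CPM and lymphoid markers 15.4 CPM in any library. Mast cell and basophil markers summed to 3.77 to 18.2 CPM and megakaryocyte markers to 139 to 348 CPM. In both cases the highest sum was in an M-CSF library. Of the megakaryocyte markers, Pf4 and Vwf were named after their values were seen. Pf4 held most of the sum with M-CSF, at 293, 278 and 290 CPM. Vwf went the other way, at 22.3, 25.5 and 27.1 CPM with M-CSF and 45.7, 52.1 and 53.9 CPM with RANKL. No marker of these 9 lists that the table holds was at 0 everywhere. The part of any of these cells in the values of the mitosis genes was not tested.

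Libraries of 1 group differed in the 39 genes together. Among the RANKL libraries, 31 of the 39 genes lay above the group mean in replicate 1, 21 in replicate 2 and 9 in replicate 3. With RHC80267 these numbers were 32, 3 and 29 for replicates 1 to 3, with BMS309403 21, 15 and 27, and with M-CSF 13, 32 and 10. The median deviation from the group mean in a library lay between −0.10 and 0.08 on the log2 scale, while the median fold change was 0.40 for RHC80267 and −0.36 for BMS309403 against RANKL. Genes of 1 list are thus not independent replicates of each other, and their counts of calls share these library shifts.

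Counting limits touch some genes. Ccna2, Aurka, Cdc20, Nusap1, Prc1, Kif20a and Anln overlap another protein-coding gene, and whether the authors' counting used strand is not given in the sources used here, so reads of overlapping genes may be shared. Expected counts of Ccna2, Nusap1, Hmmr, Prc1 and Kif20a were not whole in some library (more than 0.005 from a whole number), and those of the other 34 were whole in all 12. Libraries with a count that was not whole numbered 12 for Kif20a, 11 for Ccna2, 11 for Prc1, 4 for Hmmr and 1 for Nusap1. Of the 39, 32 lie at the same position in the RefSeq annotation. The entry of Kif11 spans an unplaced sequence, and no position is given for it.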

How the data were processed

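The deposited table gives, for each gene and library, an expected count and an FPKM value. The expected counts are the authors' deposited estimated counts. Bowtie2, RSEM 1.3.1 and DESeq2 1.4.5 are the tools named in the submitters' processing notes, and their order, like the build and the use of strand, is not given in the sources used here. Positions of genes in the table match GRCm38. The FPKM values are the authors' deposited values, scaled per transcript length and library, and were used only to compare levels between genes.

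After rounding to whole numbers, genes were filtered with filterByExpr by group in edgeR 4.0.16 (R 4.3.3), which removed 4402 of 16570 genes, and scaled with TMM factors. One quasi-likelihood fit with a term per group held all 12 libraries (8 residual degrees of freedom), and Benjamini-Hochberg adjusted p-values were taken over the 12168 genes tested. CPM are from TMM-adjusted library sizes. The alternatives were DESeq2 1.42.0, limma-voom (limma 3.58.1), other scalings and filters, fits of 2 groups, a replicate block and leaving out each library. The code was tested on simulated data.

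The 39 genes, the 7 lists of other cell cycle genes and the markers were chosen with earlier results of these data known. Values per library are given for the called gene of largest fold change in each role and comparison and for genes that differ from their role. From the other lists up to 3 called genes of lowest p per comparison are named, with Foxm1, Mybl2, E2f1, E2f8, Cdkn1a, Cdkn1b, Ccnd1, Myc and Pcna. Other names are said to have been chosen after their values were seen.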

Additional observations from a re-analysis of the deposited data

How the results depend on the processing

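No fold change of the 39 genes changed sign while called under any alternative. Over 8 alternatives to the edgeR fit, the genes that rose with RHC80267 numbered 29 to 33 and those that fell with BMS309403 numbered 20 to 26, and 35 to 36 were higher with RHC80267 than with BMS309403. With DESeq2, and with library totals only, 1 gene was lower with RHC80267 than with BMS309403 instead of 2. For RANKL against M-CSF the 8 alternatives gave 5 to 6 genes higher and 9 to 14 lower. Of the whole table they gave 3387 to 4145 higher and 3169 to 3676 lower in that comparison. There DESeq2 and library totals only each gave 9 lower, against 13 in the edgeR fit. DESeq2 lost the calls of Aurka, Pttg1, Ndc80, Nuf2 and Racgap1, and library totals only those of Cdk1, Ndc80, Nuf2 and Racgap1. With library totals only, 274 genes of the whole table rose and 715 fell with BMS309403. With any 1 of the 12 libraries left out, the genes lower numbered 7 to 14 for RANKL against M-CSF, 12 to 24 (also all those called) for BMS309403 against RANKL, 1 to 2 for RHC80267 against RANKL and 1 to 2 for RHC80267 against BMS309403. The whole table then had 263 to 1011 calls for BMS309403 against RANKL, 152 to 487 higher and 111 to 538 lower. For RANKL against M-CSF 3320 to 3701 genes of the whole table were lower. For RHC80267 against RANKL 2482 to 3119 were lower, and for RHC80267 against BMS309403 2807 to 3372. Calls kept over these 8 alternatives and without each of the 6 libraries compared were 11 of 19 for RANKL against M-CSF, 10 of 22 for BMS309403, 27 of 33 for RHC80267 and 36 of 37 between the inhibitors. Fewer libraries leave fewer degrees of freedom; other causes were not tested.

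Deviations from the group means correlated at −0.119 to 0.0980 over 18 pairs of libraries of the same replicate number, with 0 above 0.1. Over 36 pairs of different number they correlated at −0.0736 to 0.106, with 2 above 0.1. Taken over all genes tested together, these values show no clear shift shared by replicate number. A shift confined to some of the genes was not tested. The correlations cannot tell whether libraries of the same number share a mouse or batch, which the labels do not state. A replicate block gave 5 higher and 12 lower of the 39 genes for RANKL against M-CSF, and 0 and 20 for BMS309403. It gave 31 and 1 for RHC80267, and 35 and 2 between the inhibitors. Of the whole table it gave, in the same order, 3785 and 3599, 437 and 422, 3256 and 2788, and 3642 and 3085. It lost the calls of Aurka and Nuf2 for RANKL against M-CSF and for BMS309403, and that of Kif4 for RHC80267.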
